A study of Bos taurus with 21 samples.

Results

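Described here are 3 small RNAs of bovine milk vesicles that are listed by the authors as 13_22779, 12_21573 and 4_8133. They are 3 of 126 entries in the deposited table, of which 37 carry a provisional identifier like these and 89 a miRNA name. They were chosen because the group means of both mastitis groups lay on the same side of the healthy mean, lower for 13_22779 and higher for 12_21573 and 4_8133, and because each was above 0 in all 21 libraries. The choice used the measured values, so the differences from healthy milk are given as a description with no test. No gene, sequence or genomic position is attached to a provisional identifier in the files, so no sequence is shown and no function can be stated for any of the 3.

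Extracellular vesicles are membrane-bound particles that cells release, and those of milk carry small RNAs from the cells of the udder. MicroRNAs, the best known of these, are short RNAs that guide Argonaute proteins to messenger RNAs and lower their translation or stability. Mastitis is an inflammation of the udder, usually after bacterial infection. In the clinical form the milk or the udder is visibly altered, and in the subclinical form the inflammation is found only by testing the milk.

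Vesicle small RNA was sequenced from the milk of *Bos taurus* cows in 3 groups of 7 libraries each, with healthy cows as controls and the others affected by subclinical or by clinical mastitis. The groups are taken to be of different cows, and a library is named here by its group and the number in its label, such as clinical 10. No strain, age, treatment, pathogen or day of sampling is given in the sources used here. Each value is a share of the reads assigned to listed entries, given as a percent of the listed reads or as reads per 1000000 listed reads (RPM). The steps between the deposited values imply how many listed reads lie behind a library: 954 to 9587 for healthy cows, 1785 to 4979 for subclinical mastitis and 2851 to 5511 for clinical mastitis. These are not the sequencing depths. A share does not tell a smaller amount of 1 RNA from a larger amount of the others, and fewer vesicles of a kind cannot be told apart from less RNA per vesicle.

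The label of the material was checked against miRNAs known from milk and mammary epithelium. Of 10 such markers 7 were listed, and miR-148a, miR-200c and miR-141 were not among the listed entries. The 7 together held 0 to 5 reads in a healthy library, 0 to 2 in a clinical library and 3 to 216 in a subclinical library, or at most 4 without subclinical 4. That library stood apart, with 381 reads of named miRNAs against 0 to 14 in each of the other 20 libraries. Outside subclinical 4 the marker reads were too few to bear out the label. Of 7 leukocyte markers only miR-181a was listed, with 2 reads, both in subclinical milk. Of 4 erythrocyte markers only miR-16b was listed, with 2 reads, both in subclinical 4. The part of these cell types in the values below was not tested.

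Together the 3 entries made up 3.99% ± 0.931 of the listed total in healthy milk, 4.32% ± 1.31 in subclinical and 4.76% ± 1.48 in clinical milk (SD, n = 7 each). The sum hides opposite directions. In healthy milk the 3 entries had similar means, from 1.23% to 1.45%, while in both mastitis groups 13_22779 had a lower and the other two a higher mean than in healthy milk.

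**Figure D1:**
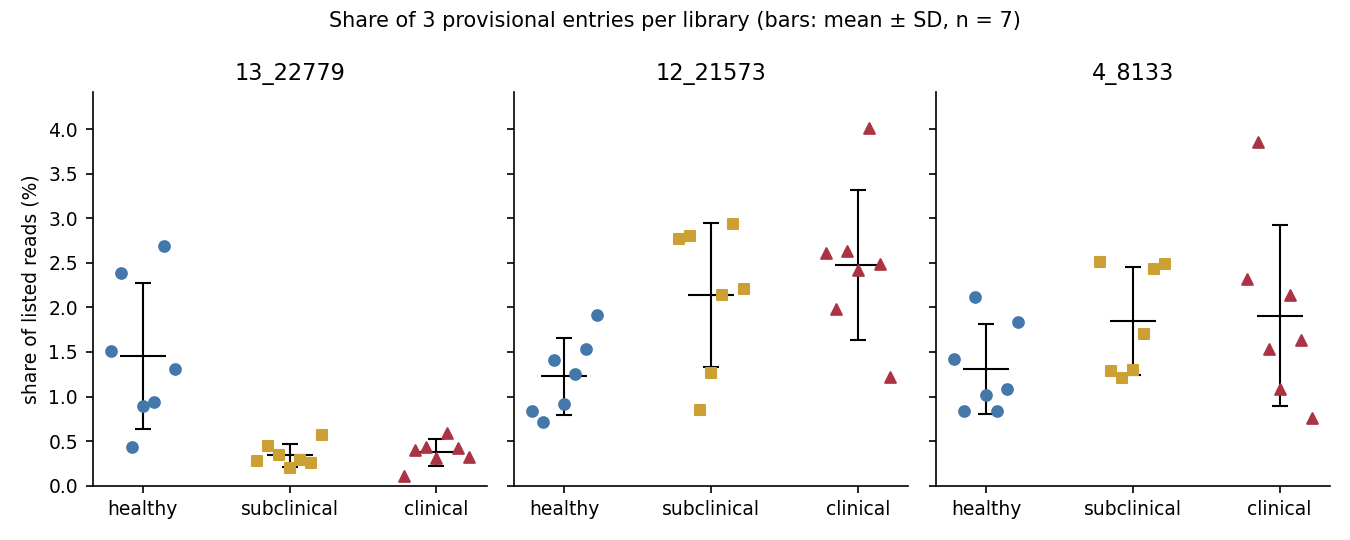
Share of listed reads (%) of the 3 entries in each library, by group, on a common axis that starts at 0. Points are libraries, and bars give the mean ± SD (n = 7). For 13_22779 the 14 mastitis libraries lie between 0.11% and 0.595%, and only healthy 3 (0.432%) lies among them.

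Entry 13_22779 was the one that was lower in mastitis. In healthy libraries it took 0.432% of the listed reads at the lowest, 1.31% at the median and 2.69% at the highest. In subclinical libraries the lowest share was 0.2%, the median 0.293% and the highest 0.563%. In clinical libraries the lowest was 0.11%, the median 0.401% and the highest 0.595%. Every one of the 14 mastitis libraries lay below the healthy mean, and 6 of 7 healthy libraries lay above all 14. For the other entries above 0 in all 21 libraries with both mastitis means lower, 10 to 12 of the 14 lay below the healthy mean. The ranges overlapped through healthy 3 alone, in which 11 of 2547 listed reads gave 0.432% (exact Clopper-Pearson 95% interval 0.216% to 0.771%, counting error only). No entry of 126 had a healthy range free of overlap with the subclinical range, and none with the clinical range (0% in each comparison). An entry with a value of 0 in both groups overlaps in any case.

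The group means of 13_22779 were 1.45% ± 0.821 in healthy, 0.34% ± 0.125 in subclinical and 0.372% ± 0.148 in clinical milk (SD, n = 7 each). The healthy mean was therefore 4.27-fold the subclinical mean and 3.9-fold the clinical mean. On the log2(RPM + 1) scale the difference from healthy was -1.95 (SE 0.61) in subclinical and -1.88 (SE 0.61) in clinical milk, as estimated by limma with all 21 libraries in 1 fit. Without subclinical 4, the library that stood apart, the subclinical difference was -1.84. Over the 16 entries above 0 in all 21 libraries, the medians of the same estimates were 0.02 and -0.14. Over all 126 entries they were 1.198 and 0, where most values are 0 and the estimates depend on the pseudocount. The 1.198 comes from subclinical 4, which had 91 entries above 0 against 20 to 34 in each other library. It is the estimate for an entry with 1 read there and 0 in every other subclinical and healthy library.

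The reads behind 13_22779 were few in mastitis. It held 5 to 20 reads in a clinical library and 6 to 17 in a subclinical library, against 9 to 229 in a healthy library. Pooled over a group, 74 of 23191 listed reads gave 0.319% in subclinical milk (exact 95% interval 0.251% to 0.4%) and 107 of 29434 gave 0.364% in clinical milk (0.298% to 0.439%). In healthy milk 579 of 32059 gave 1.81% (1.66% to 1.96%), a figure in which the libraries with the most listed reads weigh most. These pooled intervals cover counting error only and leave out the differences between libraries of a group, so they are too narrow for a group. The abundance rank of 13_22779 within a library was 9 at the median in healthy milk, 15 in subclinical and 11 in clinical milk.

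The libraries of a group also differed from each other to unlike degrees. The variance of the 13_22779 reads about the pooled share, divided by the variance that counting alone gives, was 16.6 in healthy milk, 1.19 in subclinical and 2.43 in clinical milk. This ratio grows with the number of reads, which was larger in healthy milk. The SD of the log2 values was 0.91 in healthy milk, 0.51 in subclinical and 0.78 in clinical milk (n = 7 each).

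In healthy milk the libraries with more listed reads tended to have the larger share of 13_22779. The 2 highest shares, 2.69% in healthy 6 and 2.39% in healthy 2, came from the libraries with 6256 and 9587 listed reads, the 2 largest totals of all 21. Across the 7 healthy libraries the correlation of the log2 share with the log2 number of listed reads was 0.68. It was -0.59 across the 7 subclinical and -0.25 across the 7 clinical libraries. With each group centred on its mean, Pearson's r was 0.27 over 21 libraries (permutation p = 0.342, adjusted p = 0.684 over 6 relations) and Spearman's rho 0.23 (permutation p = 0.37, adjusted p = 0.741). Without healthy 2 and healthy 5, the libraries farthest from the median on the x axis, r was 0.11.

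The 3 healthy libraries healthy 2, healthy 5 and healthy 6 had totals outside the range of the mastitis libraries. Without them the healthy mean of 13_22779 was 1.04% ± 0.48 (SD, n = 4), and the log2 difference from healthy was -1.54 in subclinical and -1.47 in clinical milk, a setting added after the data were seen.

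**Figure D2:**
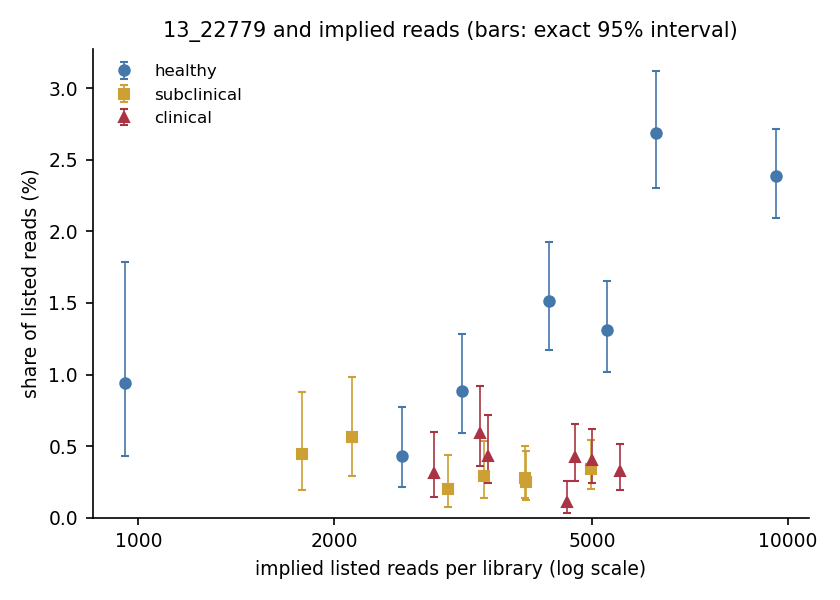
Share of listed reads (%) of 13_22779 against the implied listed reads of each library (log scale), with exact 95% counting intervals as bars. Healthy 6 and healthy 2, with 6256 and 9587 listed reads, have the highest shares (2.69% and 2.39%), and the mastitis libraries stay at or under 0.595% across 1785 to 5511 listed reads.

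Entry 12_21573 was higher in mastitis. In healthy libraries its share was 0.709% at the lowest, 1.26% at the median and 1.92% at the highest. In subclinical libraries it was 0.844%, 2.21% and 2.94%, in the same order. In clinical libraries it was 1.22%, 2.49% and 4.02%. The ranges overlapped: 6 of 7 clinical and 5 of 7 subclinical libraries lay above the highest healthy library, healthy 9. The exceptions were clinical 10 (1.22%), subclinical 3 (0.844%) and subclinical 4 (1.27%), which lay within the healthy range.

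Its means were 1.23% ± 0.431 in healthy, 2.14% ± 0.807 in subclinical and 2.48% ± 0.841 in clinical milk (SD, n = 7 each), 1.74-fold and 2.02-fold the healthy mean. The log2 difference from healthy was 0.76 (SE 0.40) in subclinical and 1.02 (SE 0.40) in clinical milk. Without subclinical 4 the subclinical difference was 0.87. These values rest on more reads than those of 13_22779 in mastitis, with 38 to 116 in a subclinical and 67 to 135 in a clinical library. The variance of the reads was 9.36, 12.4 and 12.5 times that of counting alone in healthy, subclinical and clinical libraries. No relation of the share of 12_21573 to the number of listed reads was detected (group-centred r = -0.31, permutation p = 0.176, adjusted p = 0.527, and rho = -0.22, permutation p = 0.351, adjusted p = 0.741). Without healthy 2 and healthy 5 the r was -0.28. Within the groups it was -0.21 in healthy, -0.42 in subclinical and -0.66 in clinical milk (n = 7 each).

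Entry 4_8133 had the smallest differences of the 3. Its share was 0.834% at the lowest, 1.09% at the median and 2.12% at the highest in healthy libraries. In subclinical libraries the values were 1.21%, 1.7% and 2.51%. In clinical libraries they were 0.762%, 1.64% and 3.85%. The ranges overlapped widely, with 3 of 7 subclinical and 3 of 7 clinical libraries above the highest healthy library, healthy 3, and clinical 10 below the lowest.

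The means of 4_8133 were 1.31% ± 0.506 in healthy, 1.85% ± 0.61 in subclinical and 1.9% ± 1.02 in clinical milk (SD, n = 7 each), 1.41-fold and 1.46-fold the healthy mean. Of the 14 mastitis libraries 9 lay above the healthy mean and 13 above the healthy median. The log2 difference from healthy was 0.52 (SE 0.42) in subclinical and 0.46 (SE 0.42) in clinical milk. Without subclinical 4 the subclinical difference was 0.59. Clinical 3, with 192 of 4986 reads (3.85%, exact 95% interval 3.33% to 4.42%), raised the clinical mean, and without it the clinical difference was 0.26. With healthy 2, healthy 5 and healthy 6 left out the differences were 0.19 and 0.14. No relation of its share to the number of listed reads was detected (group-centred r = 0.052, permutation p = 0.825, adjusted p = 0.9, and rho = 0.0039, permutation p = 0.989, adjusted p = 0.989). Without healthy 2 and healthy 5 the r was -0.014.

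Clinical and subclinical milk are set side by side here as a description. The choice of the entries used the means of both mastitis groups, so this comparison is not independent of it, and no p is given for the 3 entries. With p-values adjusted over all 126 entries by the Benjamini-Hochberg method, limma's moderated test called 4 entries (3.17%), 0 higher and 4 lower in clinical milk, and 13 entries (10.3%) had an unadjusted p under 0.05. The direction of these calls depended on the scaling: with centred log-ratios 3 entries were higher and 1 lower, and with median-of-ratios scaling 1 was higher and 1 lower. None of the 3 entries described here was among the 4 or the 13, and nothing is read from that, since the choice of entries shapes it.

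For 13_22779 the log2 difference of clinical from subclinical milk was 0.07 (SE 0.61), with a 95% interval from 0.45-fold to 2.44-fold. For 12_21573 it was 0.26 (SE 0.40), with an interval from 0.687-fold to 2.08-fold. For 4_8133 it was -0.06 (SE 0.42), with an interval from 0.538-fold to 1.72-fold. The sign of the 4_8133 difference depended on the scaling. The intervals are wide enough for a difference between the forms of mastitis about as large as that between mastitis and healthy milk for 12_21573 and 4_8133, so they do not show that the forms are alike.

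The side of healthy did not by itself set these 3 entries apart. Of the 16 entries above 0 in every library, 14 (87.5%) had both mastitis means on the same side of healthy. Both means were lower for 8 of the 16 (50%) and higher for 6 (37.5%). Among those 8, 13_22779 had the lowest ratio of subclinical to healthy means, 0.234, and the next was 15_26127 at 0.686. In clinical milk its ratio of 0.257 was close to those of X_41367 (0.253) and 17_28610 (0.292) and above that of 17_28203 (0.196), and these 3 had subclinical ratios of 0.708, 0.795 and 0.702. Among the 6 higher entries, 6_10969 had the highest ratios, 3.92 in subclinical and 2.51 in clinical milk. The ratios of X_41828 were 1.49 and 2.4, and those of 12_21573 were 1.74 and 2.02. The most abundant entries, X_42271 and 16_27381, had ratios of 1.06 and 1.09 in subclinical and 1.31 and 1.4 in clinical milk. For 4_8133 the ratios were 1.41 in subclinical and 1.46 in clinical milk, the latter close to that of 16_27381.

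**Figure D3:**
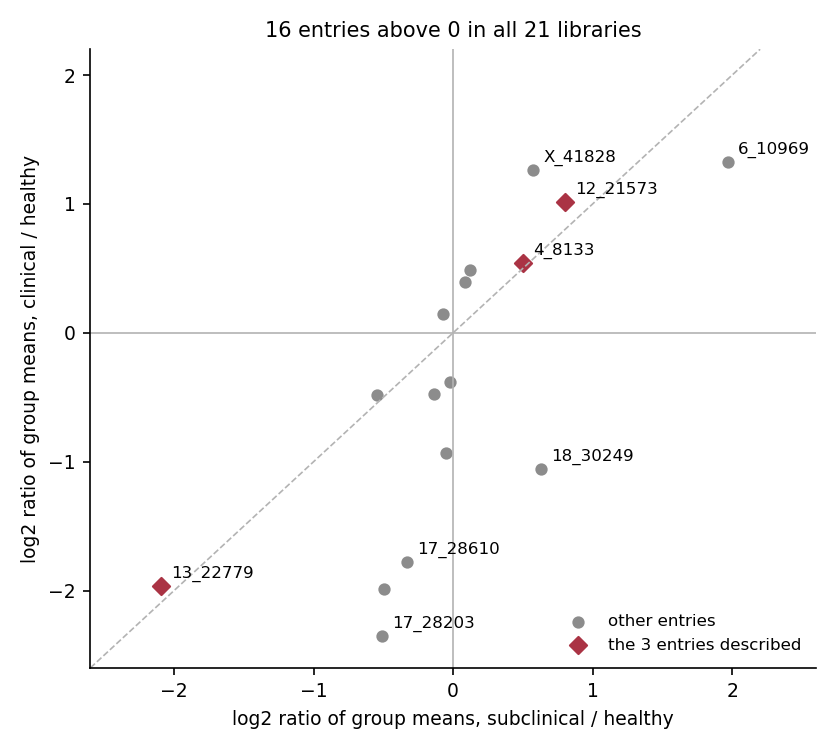
Log2 ratio of group means to the healthy mean, for subclinical (horizontal) and clinical milk (vertical), of the 16 entries above 0 in all 21 libraries. Diamonds are 13_22779, 12_21573 and 4_8133, the dashed line marks equal ratios, and both axes share the healthy libraries. 13_22779 lies near the line at -2.09 and -1.96, while 17_28203 lies at -0.51 and -2.35.

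Ratios between entries within a library do not depend on how the library was scaled. However, 13_22779 was chosen as lower and 12_21573 and 4_8133 as higher in mastitis, which by itself favours lower ratios of 13_22779 to them. These ratios are therefore a description and no separate support. In healthy libraries 13_22779 and 12_21573 were of like abundance, with a ratio of 0.306 at the lowest, 0.966 at the median and 3.37 at the highest. The median ratio was 0.158 in subclinical libraries (0.0862 to 0.405) and 0.165 in clinical libraries (0.042 to 0.269). In 3 of 7 healthy libraries 13_22779 was the more abundant of the pair, and in 0 of 14 mastitis libraries. The ratio of 13_22779 to 4_8133 had medians of 1.07, 0.172 and 0.278 in healthy, subclinical and clinical libraries. That of 12_21573 to 4_8133 had medians of 0.906, 1.1 and 1.6, with ranges of 0.59 to 1.5, 0.7 to 2.17 and 0.516 to 2.23 that overlapped throughout.

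Entries 12_21573 and 4_8133 tended to vary together from library to library. With each group centred on its mean, which takes out the differences the entries were chosen on, Pearson's r was 0.52 over 21 libraries (permutation p = 0.0176) and Spearman's rho 0.56 (permutation p = 0.0119). Neither passed after adjustment over the 6 relations tested (adjusted p = 0.106 and 0.0715). The correlation was positive in each group, at 0.54 in healthy milk, 0.66 in subclinical and 0.46 in clinical milk (n = 7 each). Without clinical 10 and subclinical 3, the libraries farthest from the median on the x axis, r was 0.32, so the relation rests in part on those libraries. In clinical 10 both entries were low for their group, at 1.22% and 0.762%. Shares of 1 total are bound to each other, which can move r in either direction.

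**Figure D4:**
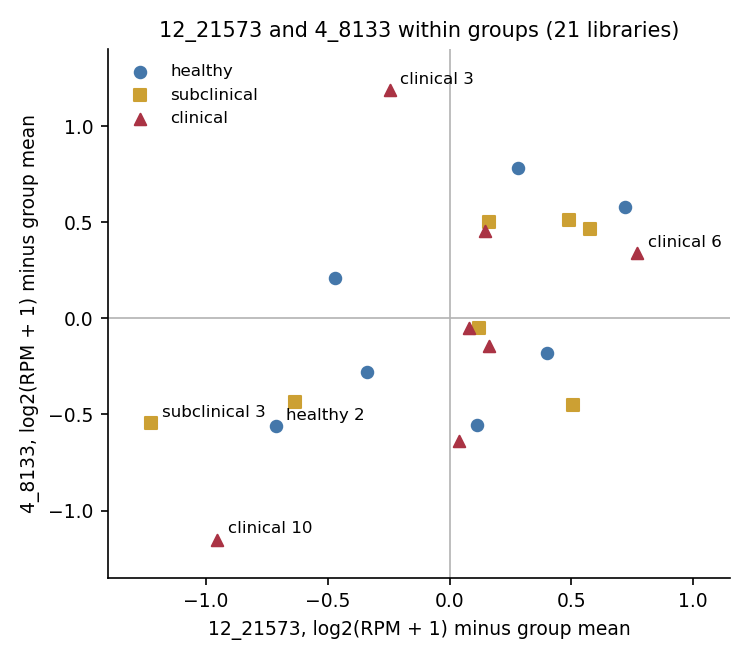
Log2(RPM + 1) of 12_21573 (horizontal) and 4_8133 (vertical), each minus the mean of the library's group, in 21 libraries. Clinical 10 lies lowest, at -0.95 and -1.15, clinical 3 lies highest on the vertical axis at 1.19, and the overall r is 0.52.

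No relation of 13_22779 to either of them was detected. Its group-centred r was 0.029 with 12_21573 (permutation p = 0.9, adjusted p = 0.9) and -0.17 with 4_8133 (permutation p = 0.492, adjusted p = 0.737). The rho values were 0.12 (permutation p = 0.627, adjusted p = 0.769) and -0.11 (permutation p = 0.641, adjusted p = 0.769). Without healthy 3 and clinical 1 the r values were 0.20 and 0.17.

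The entries whose pattern was most like each of the 3 were taken by the group-centred r over the 15 other entries above 0 in all 21 libraries, as a description. For 13_22779 they were 17_28610 (0.60), 17_28203 (0.59) and X_41367 (0.59), and the least like was 2_2827 (-0.55). For 12_21573 they were 4_8133 (0.52), X_41828 (0.47) and 17_28475 (0.46), with 17_28610 the least like (-0.089). For 4_8133 they were 12_21573 (0.52), X_41828 (0.46) and 16_27381 (0.32), with 6_10969 the least like (-0.27).

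The likeness of 13_22779 to 17_28610 was strongest in healthy milk. Across the 7 healthy libraries r was 0.93, and both entries were highest in healthy 6 and healthy 2 and lowest in healthy 3. Entry 17_28610 took 28.5% of the listed reads in healthy 6, 24.4% in healthy 2 and 4.44% in healthy 3. Across the 7 subclinical libraries r was 0.14, and across the 7 clinical libraries 0.60. The difference between these correlations was not tested.

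Subclinical milk held the libraries in which these entries parted most. In subclinical 3 the share of 17_28610 was 30.3%, above every healthy library, and that of 13_22779 was 0.341%, below every healthy library. In subclinical 6 the shares were 19.5% and 0.253%. The ratio of 13_22779 to 17_28610 had a median of 0.0973 in healthy (0.0615 to 0.132), 0.0417 in subclinical (0.0113 to 0.0684) and 0.0939 in clinical libraries (0.0442 to 0.152). The healthy range of this ratio lay within the clinical range, and overlapped the upper end of the subclinical range. The ratio was chosen after its values were seen and is given with no test.

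**Figure D5:**
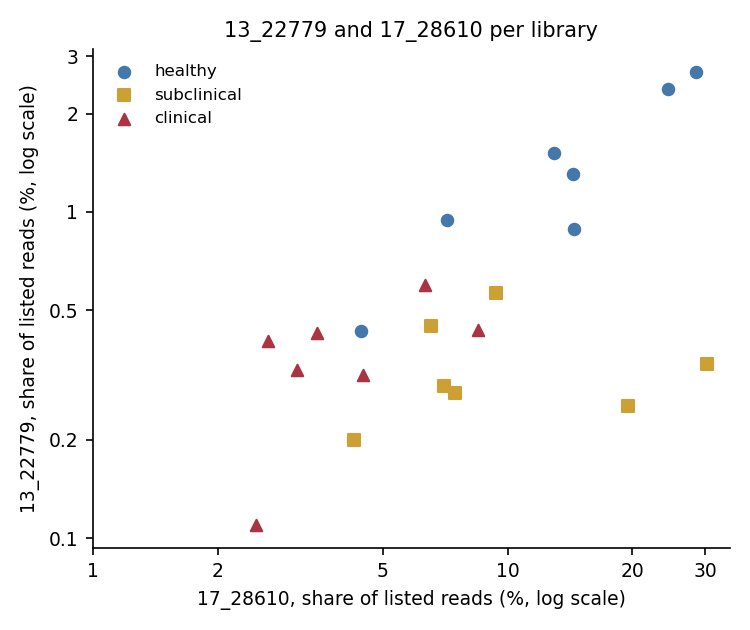
Share of listed reads (%) of 13_22779 against that of 17_28610 in each library, both on log scales. Healthy libraries run from 4.44% and 0.432% in healthy 3 to 28.5% and 2.69% in healthy 6, while subclinical 3, at 30.3% and 0.341%, lies far below them.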

How the data were processed

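The authors deposited 1 table, with 126 entries as rows and the 21 libraries as columns. Another 3 columns hold the group means (largest deviation 4.29e-07 RPM). Its values are named TPM, but each library sums to 1000000 and all 629 values above 0 are whole multiples, within 0.01 of a read, of the library's smallest value, so that the deposited values are RPM (reads per 1000000 listed reads) with no division by length. Per the labels' protocols, the vesicle RNA came from a miRNeasy extraction and TruSeq reagents for small RNA served for the libraries. Per the submitters' processing notes, Bowtie, edgeR and the build ARS-UCD1.2 were used, with no version or role. The sources used here do not give the trimming, the length filter, the database or the tool behind the provisional identifiers. Clinical columns carry another prefix than the sample titles and the same numbers.

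Implied reads are a library's sum divided by its smallest value, and 1 read was worth 104.3 to 1048 RPM. The table is too short for a count test on implied reads, so log2(RPM + 1) was tested with limma-trend (limma 3.58.1, R 4.3.3), all 21 libraries in 1 fit, two-sided, with Benjamini-Hochberg adjustment over the entries averaging 1 RPM or more, all 126 in the full set. A call is an adjusted p under 0.05. The planned test of the 3 entries in clinical against subclinical milk is given as a difference with its interval and without p, because their choice used the means of both groups. The SEs are moderated and borrow from other entries. Correlations used group-centred log2 values and 100000 permutations within groups, two-sided, adjusted over 6 relations. Intervals are exact Clopper-Pearson at 95% and cover counting error only. Python 3.11.15, NumPy 2.4.6, SciPy 1.17.1, pandas 2.3.3 and matplotlib 3.10.9 were used. The fit and the permutation test were tested on simulated data.

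Libraries of a group are taken to be from different cows, which the differences given next do not by themselves show. Over the entries that reach 10 reads in a pair, the chi-square per degree of freedom was 1.85 or more in each of the 63 same-group pairs of libraries. Counting noise alone gives about 1 on average, and no p was taken for a pair. None of the 3 entries repeats another entry's values. The entries, the marker lists and the tests were chosen with earlier results of these data known. Besides the 3 entries, the text names, for each, the 3 entries with the highest and the 1 with the lowest group-centred correlation among those above 0 in every library, and others above 0 in every library whose mastitis means lie on 1 side of healthy. Alternatives were other scalings, pseudocounts of 0.1, 10 and 500 RPM, a minimum mean of 1000 RPM, fits of 2 groups and limma without trend. Others were exact permutation per entry, implied reads as a covariate and a replicate block by the number in the titles. Each library was left out in turn, and subclinical 4 and healthy 5 together. A setting added after the data were seen kept only healthy libraries within the range of implied reads of the mastitis libraries. The block leaves no residual for subclinical 8 and clinical 10, whose numbers no other library has, so its permutation p may be too low. Trimmed-mean scaling took subclinical 4, the library that stood apart, as its reference. With it, the correlations with implied reads were higher for all 3 entries. Its passing correlations may come from the scaling, which was not tested.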

Additional observations from a re-analysis of the deposited data

How the results depend on the processing

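The log2 differences from healthy milk kept the sign on which the entries were chosen in all 35 alternatives. Some, such as leaving out libraries of the group not compared, cannot move them. They ran from -2.25 to -1.54 (subclinical) and -2.14 to -1.47 (clinical) for 13_22779. The ranges were 0.47 to 0.97 and 0.89 to 1.43 for 12_21573, and 0.19 to 0.65 and 0.14 to 0.87 for 4_8133. Scaling moved all entries together in clinical against subclinical milk, by 0.27 on the log2 scale with median-of-ratios, 0.26 with trimmed-mean, 0.14 with rescaling without X_42271 and 0.51 with centred log-ratios.

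In clinical against subclinical milk the differences nearest to 0 changed sign. That of 13_22779 became -0.046 without subclinical 4 and healthy 5 and -0.040 with implied reads as a covariate, and ran from -0.068 to 0.34 with single libraries left out. That of 4_8133 became 0.22 with median-of-ratios scaling, 0.21 with trimmed-mean scaling, 0.080 without X_42271, 0.46 with centred log-ratios and 0.10 with the replicate block, and ran from -0.25 to 0.14 with single libraries left out. The number of entries passing, 4, all lower, became 2 with median-of-ratios scaling (1 higher) and stayed 4 with centred log-ratios (3 higher). It became 1 with trimmed-mean scaling, without trend and with the replicate block, and 7 of 20 with a minimum mean of 1000 RPM. It was 3 to 5 with single libraries left out and 0 with pseudocount 500 RPM (10 at an unadjusted p of 0.05 in limma). Exact permutation gave 0 (9 at an unadjusted p of 0.05), but a lone entry at the lowest possible p adjusts to 0.0734. Other causes were not tested.

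The correlation of 12_21573 with 4_8133 passed without X_42271 (r = 0.56, adjusted p = 0.0476) and without subclinical 2 (0.59, adjusted p = 0.0463). It passed with trimmed-mean scaling (0.51, adjusted p = 0.024) and the replicate block (0.68, adjusted p = 0.0102), with limits given above. It passed without clinical 3 (0.67, adjusted p = 0.0158), but not in 26 other alternatives (adjusted p up to 0.501, without clinical 10). With single libraries left out it ran from 0.40 to 0.67. That of 13_22779 with 12_21573 became -0.011 without X_42271, -0.015 with centred log-ratios, -0.032 without subclinical 4 and healthy 5 and -0.37 with the replicate block, and -0.073 to 0.14 with single libraries left out. That of 13_22779 with 4_8133 became 0.14 with median-of-ratios and 0.11 with trimmed-mean scaling. With implied reads, trimmed-mean scaling alone passed, at 0.63 for 13_22779 (adjusted p = 0.0364) and 0.60 for 4_8133 (adjusted p = 0.0184). It gave 0.36 for 12_21573. The r with 13_22779 became -0.071 with healthy libraries of matched totals. For 4_8133 it became -0.015 without X_42271, -0.17 without subclinical 4 and healthy 5 and -0.11 with the replicate block, and -0.16 to 0.19 with single libraries left out.

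Whether replicate numbers pair cows cannot be told without cow identities. Same-numbered libraries correlated at -0.77 to 0.65 in 17 pairs, over 0.1 in 7, and 3 of 21 correlated best with their own number. Mastitis shares of 13_22779 rest on 5 to 20 reads each, which limits their comparison.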
